A study of Homo sapiens with 12 samples.

Results

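The genes described here are 6 effectors that act on double-stranded RNA: OAS1, OAS2, OAS3 and OASL of the oligoadenylate synthetase family, EIF2AK2, which encodes the protein kinase PKR, and ADAR, which encodes the RNA-editing enzyme ADAR1. The rule picks them by symbol and uses no measured value, although the set was drawn up with earlier results of these data known. They are 6 of the 60617 gene identifiers listed for each library. All 6 were among the 22756 genes that averaged at least 1 count per library and were tested. The RNA came from 12Z, a line of immortalized endometriotic epithelial cells, and was sequenced in 4 groups of 3 libraries that the study describes as independent experiments. All cultures were given non-targeting siRNA and, 24 h later, a pBabe plasmid by transient transfection. Control cells received the empty vector and H1047R cells received PIK3CA H1047R, an activated form of the catalytic subunit of PI3Kα. After 4 h without serum, cells of each kind were given vehicle or 100 nM insulin in serum-free medium for 24 h. Each group is named by its plasmid and its treatment, as in control vehicle or H1047R insulin. The plasmid adds its own copies of PIK3CA to a line that keeps its endogenous gene, so H1047R and the overexpression of PIK3CA cannot be told apart.

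Long double-stranded RNA is rare in uninfected cells and common during viral replication, and cells carry several proteins that bind it. The OAS1, OAS2 and OAS3 enzymes are switched on by such RNA and join ATP into short 2′-5′-linked oligoadenylates, which trigger the decay of cellular and viral RNA. OASL resembles the OAS enzymes but makes no oligoadenylates and carries ubiquitin-like domains that enhance signalling by the RNA helicase RIG-I. PKR phosphorylates the initiation factor eIF2α and so lowers translation, and ADAR1 converts adenosine to inosine in double-stranded RNA, which reduces its recognition as foreign. All of these genes are known to be induced by interferon, through the transcription factor complex ISGF3, which binds a sequence called the interferon-stimulated response element (ISRE). In bulk RNA, a change in the number of cells that express a gene and a change in its RNA per cell cannot be told apart.

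On hg38, OAS1 (chr12:112905856-112933219), OAS3 (chr12:112938051-112976460) and OAS2 (chr12:112978395-113011723) lie side by side on the plus strand. OASL (chr12:121017763-121039246) lies apart on the minus strand of the same chromosome, EIF2AK2 (chr2:37099210-37157522) on the minus strand of chromosome 2, and ADAR (chr1:154581695-154628013) on the minus strand of chromosome 1. The sequences before the start site are shown because the members moved together. RefSeq promoter windows (GRCh38.p14, 250 bases before the start and 50 from it on) were matched for 4 of the 6 genes, with 6 windows in all because ADAR had 3. The core of the ISRE (GAAA, 2 bases of any kind and GAAA) was searched on both strands, and so was AAACGAAAC, which was chosen after the sequences were seen and overlaps the first. The bases up to the RefSeq start site are printed in the direction of transcription, with matches to either motif in capitals. The EIF2AK2 sequence runs 5 bases past the start to hold its match. The gene spans above are from GENCODE v44, whose outer ends differ from the RefSeq starts. All the printed stretches lie inside those spans and not upstream of them.
OAS1, chr12:112906812-112906961 (+): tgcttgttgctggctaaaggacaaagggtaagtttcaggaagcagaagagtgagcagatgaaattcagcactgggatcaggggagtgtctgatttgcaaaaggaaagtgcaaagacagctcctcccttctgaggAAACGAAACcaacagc
OAS3, chr12:112938324-112938473 (+): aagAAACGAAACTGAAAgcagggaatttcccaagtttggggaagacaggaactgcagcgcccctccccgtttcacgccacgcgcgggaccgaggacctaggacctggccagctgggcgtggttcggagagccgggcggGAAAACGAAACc
EIF2AK2, chr2:37156976-37157130 (-): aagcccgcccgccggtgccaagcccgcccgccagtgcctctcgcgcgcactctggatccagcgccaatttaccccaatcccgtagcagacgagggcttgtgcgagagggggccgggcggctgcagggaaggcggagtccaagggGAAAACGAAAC

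The ISRE core was found at 2 places in the OAS3 window, at -143 to -134 and at -12 to -3 from the start, and at 1 place in the EIF2AK2 window, at -6 to 4. Of all 35116 RefSeq windows, 1255 (3.57%) held it. AAACGAAAC was found in the OAS1 window at -16 to -8, in the OAS3 window at -147 to -139 and at -10 to -2, and in the EIF2AK2 window at -4 to 5. It was in 39 (0.111%) of all windows, but since it was chosen from these sequences, its presence in them was fixed in advance. Neither motif was found in the 3 ADAR windows. These matches describe letters only.

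Total gene counts were 21483124 to 29255708 in the libraries of the first 3 groups and 30071951 to 37918025 in those of the H1047R insulin group, so the members were counted more deeply where they were highest. Reads placed at several sites, which are not counted, were 8.48 to 9.51% of reads in the H1047R insulin libraries and 13.6 to 15.4% in the other 9. Levels are given as counts per 1000000 counts (CPM), scaled by TMM factors. PIK3CA, the transfected gene, was at 80.9 to 89.0 CPM over the 6 control libraries, 180.1 to 312 CPM in H1047R vehicle and 714 to 734 CPM in H1047R insulin. Its level was thus 3.06-fold higher in H1047R insulin than in H1047R vehicle, and a response to insulin and a response to more PIK3CA RNA cannot be told apart between those groups. H1047R vehicle replicate 1 stood above the other libraries of its group for PIK3CA and for all 6 members, so results that rest on it are also given without it. The epithelial marker KRT8 had group means of 1393 to 1452 CPM, while EPCAM (0.434 to 0.873 CPM) and CDH1 (1.23 to 2.22 CPM) were low in every group. Of the other keratins, for insulin in H1047R cells KRT7 was called lower (-0.30 on the log2 scale) and KRT19 higher (0.24), and KRT18 was called higher for H1047R in insulin (0.30). The summed level of 8 leukocyte markers was 4.01 to 6.56 CPM over all libraries, with CD3E and NKG7 at 0. None was called for insulin in H1047R cells, and ITGAM was called higher for H1047R in insulin (means of 0.0115 and 0.255 CPM). That of 4 endothelial markers was 5.03 to 5.32 CPM in H1047R insulin and 2.69 to 4.72 CPM in the other libraries, and VWF was called higher for insulin in H1047R cells (0.92 ± 0.161 on the log2 scale, from 2.09 to 3.95 CPM). The other 3 were not called, with the mean of CDH5 going down (from 1.31 to 0.642 CPM) and that of PECAM1 up (from 0.0831 to 0.451 CPM). The 6 stromal markers summed to 3518 to 3999 CPM in the first 3 groups and to 2436 to 2522 CPM in H1047R insulin, where the members were highest. All 6 were called lower for insulin in H1047R cells (5 without H1047R vehicle replicate 1), against 9.8% of all genes tested. DCN fell most (-3.07 ± 0.097 on the log2 scale, from 76.5 to 9.19 CPM), then LUM (-1.98 ± 0.0707). The part of these shifts in the results below was not tested.

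OAS1 was at 4.00, 6.07 and 2.66 CPM in replicates 1, 2 and 3 of control vehicle and at 2.97, 2.37 and 2.88 CPM in those of control insulin. It was at 29.3, 7.48 and 8.20 CPM in H1047R vehicle and at 103, 66.0 and 83.9 CPM in H1047R insulin. All H1047R libraries were above all control libraries, and the H1047R insulin libraries did not overlap with any other group. The control values rest on 57 to 170 counts per library. With the empty vector, OAS2 was at 3.69, 6.39 and 2.01 CPM under vehicle and at 2.57, 2.37 and 1.74 CPM under insulin. It was at 40.9, 6.82 and 13.3 CPM in H1047R vehicle and at 187, 119 and 149.8 CPM in H1047R insulin. The order of the groups was that of OAS1, and the highest control vehicle library (6.39 CPM) came close to the lowest H1047R vehicle library (6.82 CPM).

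OAS3, the largest of the 3 synthetases, was far above its neighbours in control cells. There it was at 85.7, 102 and 82.7 CPM under vehicle and at 85.8, 82.7 and 80.8 CPM under insulin. In H1047R cells it was 247, 111 and 121 CPM with vehicle and 623, 440.2 and 535 CPM with insulin. The H1047R vehicle libraries other than replicate 1 were only slightly above the control vehicle libraries. In control cells, OASL was at 6.97, 5.43 and 5.93 CPM under vehicle and at 5.51, 3.33 and 4.85 CPM under insulin. It was at 49.3, 14.96 and 20.8 CPM in H1047R vehicle and at 223, 231 and 233 CPM in H1047R insulin. OASL was the member with the smallest relative spread in H1047R insulin (229 CPM ± 4.94, SD, n = 3).

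EIF2AK2 was abundant in every library and covered a much smaller range. In control cells it was at 205, 225 and 207 CPM under vehicle and at 221, 208 and 206 CPM under insulin, and in H1047R vehicle at 257, 209.6 and 238 CPM. In H1047R insulin it was at 374, 331 and 359 CPM, above all other libraries, while the other 3 groups overlapped. ADAR was at 238, 258 and 250.5 CPM in the control cells under vehicle, at 261, 250.01 and 256 CPM under insulin, and at 312, 269.8 and 275 CPM in H1047R vehicle. In H1047R insulin it was at 421, 359.6 and 397 CPM. All H1047R vehicle libraries of ADAR were above all control libraries, by a margin smaller than the range within the group.

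**Figure D1:**
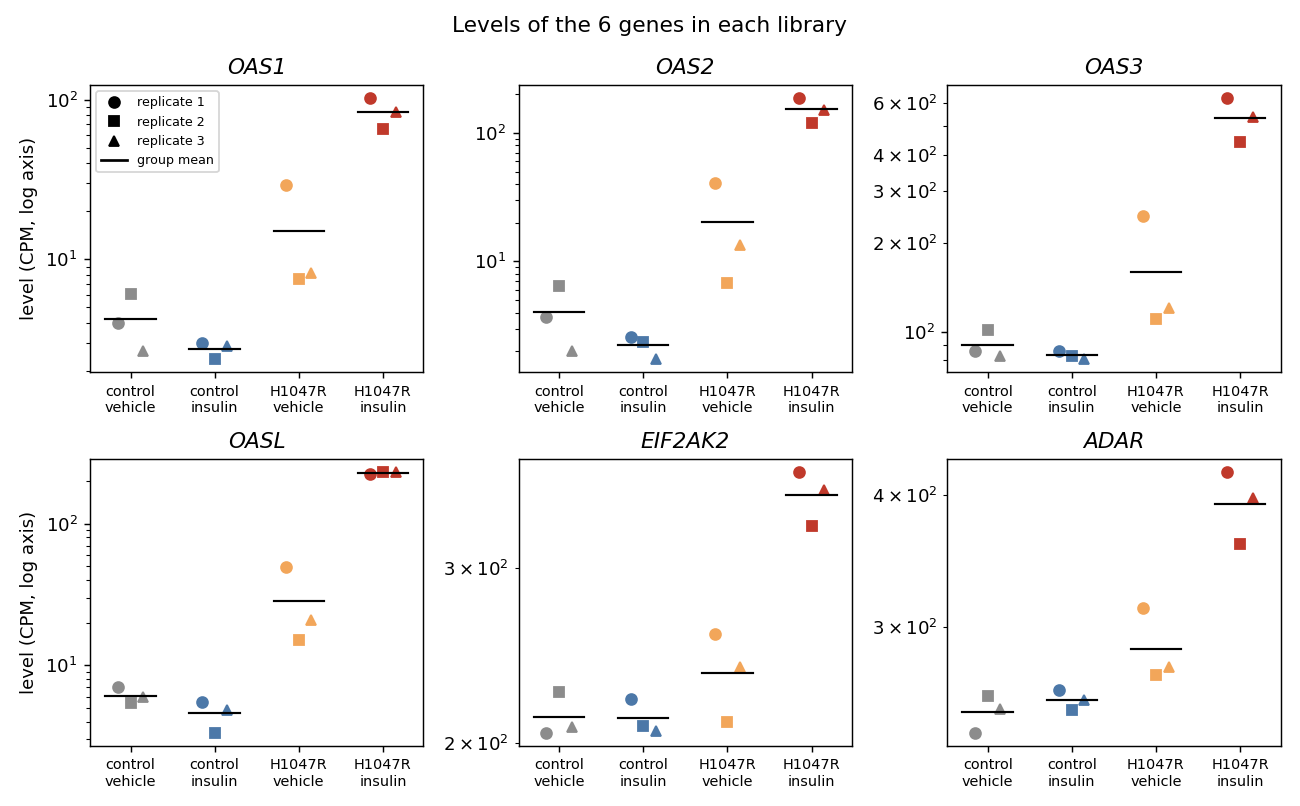
Level of each of the 6 genes in CPM (log axis) in every library of the 4 groups, with marker shapes for replicates 1 to 3 and a line for the group mean. The H1047R insulin libraries are above all others for each gene, and replicate 1 is the highest H1047R vehicle library in every panel (29.3 CPM for OAS1 and 312 CPM for ADAR).

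The first comparison asks what insulin alone did in cells with the empty vector. None of the 6 genes was called by edgeR's quasi-likelihood test at a Benjamini-Hochberg FDR below 0.001, against 1.63% of all genes tested in either direction. None had an unadjusted p under 0.05 either, and DESeq2 called none. The log2 fold change was -0.67 ± 0.415 (SE) for OAS1 (4.24 CPM ± 1.72 with vehicle and 2.74 CPM ± 0.324 with insulin, SD, n = 3), with an adjusted p of 0.460 by edgeR. It was -0.90 ± 0.532 for OAS2 (adjusted p = 0.427), -0.12 ± 0.147 for OAS3 (adjusted p = 0.777) and -0.43 ± 0.312 for OASL (adjusted p = 0.565). EIF2AK2 (-0.0041 ± 0.0515, adjusted p = 0.979) and ADAR (0.04 ± 0.0485, adjusted p = 0.782) had values near 0 with narrow errors. For OAS1 and OAS2 the errors are wide, and the call depends on the fit. When genes with low counts were kept, edgeR called both lower (adjusted p = 3.12e-05 for OAS1 and 3.79e-09 for OAS2), and a fit of these 6 libraries alone called OAS2 lower (adjusted p = 0.000735). H1047R vehicle replicate 1 is outside this comparison but enters the shared estimate of spread. Without it the errors narrowed, to -0.68 ± 0.190 for OAS1 (adjusted p = 0.0143), -0.91 ± 0.249 for OAS2 (adjusted p = 0.0114) and -0.43 ± 0.125 for OASL (adjusted p = 0.0199). None of the 6 was called in that fit.

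The second comparison asks what PIK3CA H1047R did without insulin. OAS1, OAS2, OAS3 and OASL rose, while EIF2AK2 and ADAR were not called. This is 4 of 6 genes called higher, where 0.141% of all genes tested were, and the 4 are among 32 genes called higher in all. DESeq2 and a filter of 1 CPM in 3 libraries each called OASL alone, with DESeq2 adjusted p-values of 0.0531 for OAS1, 0.0302 for OAS2 and 0.184 for OAS3. OAS2 rose by a log2 fold change of 2.26 ± 0.354 (adjusted p = 0.000186), from 4.03 CPM ± 2.21 to 20.3 CPM ± 18.1 (SD, n = 3). OASL rose by 2.20 ± 0.231 on the log2 scale (adjusted p = 1.02e-07), from 6.11 CPM ± 0.786 to 28.4 CPM ± 18.3, and the fold changes of OAS2 and OASL lie within their errors. OAS1 rose by 1.76 ± 0.306 (adjusted p = 0.000746) and OAS3 by 0.82 ± 0.144 (adjusted p = 0.000828), both on the log2 scale. The large SDs in H1047R vehicle come from replicate 1, which was 3.73-fold above the mean of the other two for OAS1, 4.06-fold for OAS2, 2.14-fold for OAS3 and 2.75-fold for OASL, but 1.15-fold for EIF2AK2 and for ADAR. The same library was 1.58-fold higher for PIK3CA. The log2 fold change was 0.15 ± 0.0516 for EIF2AK2 (adjusted p = 0.179) and 0.20 ± 0.0485 for ADAR (adjusted p = 0.0272). Libraries of the groups did not overlap for 5 of the 6 genes, all but EIF2AK2, against 7.55% of all genes with higher, non-overlapping libraries.

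Without H1047R vehicle replicate 1, OASL (log2 fold change 1.54, adjusted p = 1.63e-18) and OAS2 (1.25, adjusted p = 6.52e-05) were still called by edgeR, in the opposite order of size. OAS1 (0.84, adjusted p = 0.00538) and OAS3 (0.35, adjusted p = 0.00181) were not. The call of OAS1 was also lost without any 1 of the control vehicle libraries (adjusted p = 0.00251 to 0.0142), without control insulin replicate 1 (adjusted p = 0.00101) and without control insulin replicate 2 (adjusted p = 0.00120). The call of OAS3 was lost without any 1 of the control vehicle libraries (adjusted p = 0.00336 to 0.0147) or of the control insulin libraries (adjusted p = 0.00108 to 0.00146). The call of OAS2 was lost without control vehicle replicate 1 (adjusted p = 0.00441) and without control vehicle replicate 3 (adjusted p = 0.00447). OASL kept its call in all 21 alternatives.

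The third comparison asks what insulin did in H1047R cells. All 6 genes rose, against 9.85% of all genes tested that were called higher, and the libraries of the groups did not overlap for any of the 6, against 22.7% of all genes. OASL rose with a log2 fold change of 3.02 ± 0.159 (adjusted p = 7.08e-19), from 28.4 CPM ± 18.3 to 229 CPM ± 4.94. OAS2 rose by 2.91 ± 0.228 (adjusted p = 1.06e-13), to 152 CPM ± 33.7, and OAS1 by 2.50 ± 0.205 (adjusted p = 3.81e-13), to 84.2 CPM ± 18.3. OAS3 rose by 1.74 ± 0.138 (adjusted p = 1.41e-13), from 159.5 CPM ± 76.2 to 533 CPM ± 91.4. PKR and ADAR1 transcripts rose less on the log2 scale. EIF2AK2 rose by 0.59 ± 0.0508 (adjusted p = 1.21e-12), from 235 CPM ± 24.0 to 355 CPM ± 22.3, and ADAR by 0.46 ± 0.0478 (adjusted p = 2.22e-10), from 286 CPM ± 23.4 to 393 CPM ± 31.1. Without H1047R vehicle replicate 1, all 6 were still called, with log2 fold changes of 3.45 for OAS1, 3.95 for OAS2, 2.23 for OAS3, 3.71 for OASL, 0.69 for EIF2AK2 and 0.55 for ADAR. The order of OASL and OAS2, which lie within their errors with all libraries, turned without it.

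In absolute terms the order differed. The mean level rose by 373 CPM for OAS3, 200.5 CPM for OASL, 132 CPM for OAS2, 119.8 CPM for EIF2AK2, 107 CPM for ADAR and 69.2 CPM for OAS1. EIF2AK2 and ADAR thus gained more CPM than OAS1, whose fold change was larger than theirs.

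The fourth comparison asks what H1047R did in the presence of insulin. All 6 genes rose, against 11.4% of all genes tested that were called higher and 23.3% with higher, non-overlapping libraries. OAS2 had a log2 fold change of 6.08 ± 0.315 (adjusted p = 2.30e-19), from 2.23 CPM ± 0.431 to 152 CPM ± 33.7 (SD, n = 3). OASL had 5.65 ± 0.203 (adjusted p = 1.64e-24), OAS1 with 4.94 ± 0.265 (adjusted p = 7.60e-19) and OAS3 with 2.68 ± 0.144 (adjusted p = 7.93e-19). EIF2AK2 rose by 0.74 ± 0.0509 (adjusted p = 1.30e-15) and ADAR by 0.62 ± 0.0479 (adjusted p = 5.27e-14), again on the log2 scale. This comparison shares its H1047R insulin libraries with the third and its control insulin libraries with the first.

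**Figure D2:**
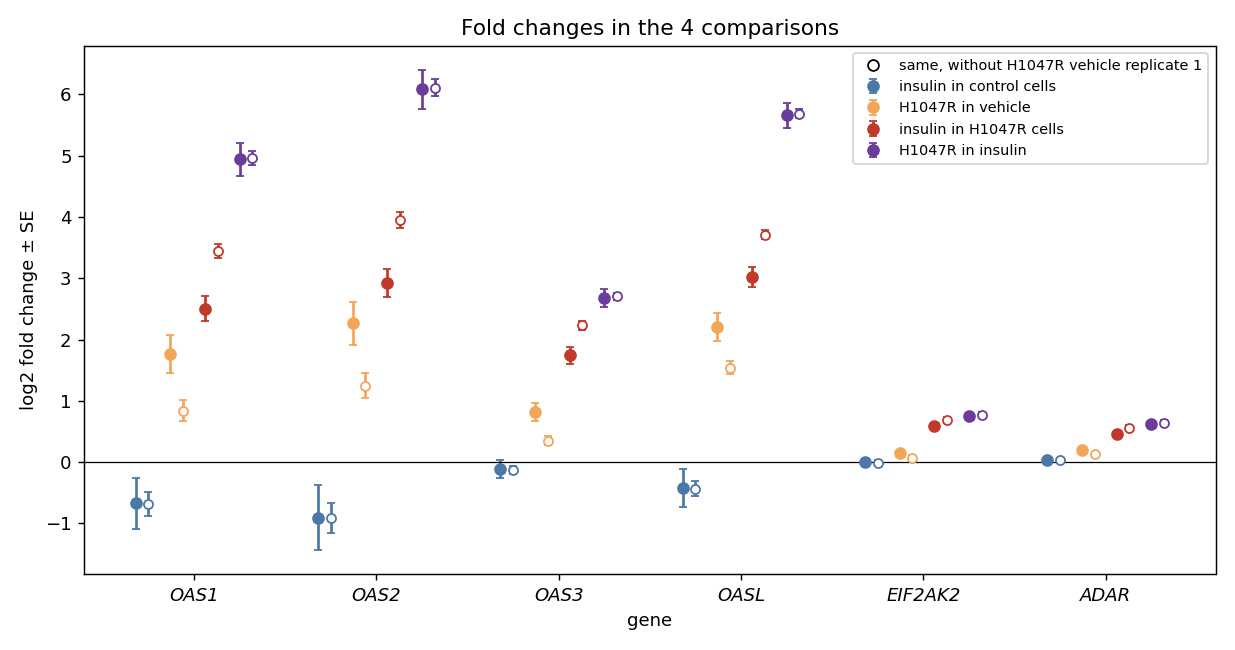
Log2 fold change (± SE) of each gene in the 4 comparisons of 3 against 3 libraries, with filled points for all 12 libraries and open points for the fit without H1047R vehicle replicate 1. The points for insulin in control cells lie at or below 0.04, those for H1047R in insulin reach 6.08 for OAS2, and EIF2AK2 and ADAR reach at most 0.77 and 0.65.

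The insulin response differed between the plasmids for every member. The interaction, which is the insulin effect in H1047R cells minus that in control cells, was called higher for all 6 genes, against 4.58% of all genes tested. It was 3.82 ± 0.584 for OAS2 (adjusted p = 2.79e-06), 3.45 ± 0.356 for OASL (adjusted p = 6.28e-10), 3.17 ± 0.468 for OAS1 (adjusted p = 1.40e-06) and 1.86 ± 0.2005 for OAS3 (adjusted p = 1.78e-09), on the log2 scale. For EIF2AK2 it was 0.60 ± 0.0723 (adjusted p = 2.53e-08) and for ADAR 0.42 ± 0.0681 (adjusted p = 7.40e-06). The call of OAS2 was lost without control vehicle replicate 2 (3.30, adjusted p = 0.00137), the control library in which OAS2 was highest. The median over the 6 genes was 2.52, against -0.014 over all genes tested.

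Most of the distance from untreated to doubly treated cells was covered only when both H1047R and insulin were present. Taking the rise of the mean from control vehicle to H1047R insulin as 100%, H1047R vehicle lay at 13.4% of it for OAS1, 11.03% for OAS2, 15.7% for OAS3, 9.99% for OASL, 15.999% for EIF2AK2 and 25.6% for ADAR. For OAS1 this was 31.3% in replicate 1, 4.05% in replicate 2 and 4.96% in replicate 3. For ADAR it was 44.2%, 14.5% and 17.9%, and for EIF2AK2 31.6%, -1.80% and 18.2%. The ratio of the means of H1047R insulin and control vehicle was 37.7 for OAS2, 37.5 for OASL, 19.8 for OAS1, 5.92 for OAS3, 1.67 for EIF2AK2 and 1.58 for ADAR. In the same libraries it was 8.14 for PIK3CA and 124 for RSAD2, the interferon-stimulated gene that encodes viperin.

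Within the H1047R vehicle group, replicate 1 was highest, replicate 3 next and replicate 2 lowest for each of the 6 genes, and also for PIK3CA and RSAD2. In H1047R insulin the same order held for PIK3CA, RSAD2 and every member but OASL, for which replicate 3 was highest (233 CPM) and replicate 1 lowest (223 CPM). The part of the PIK3CA level in the members' levels was not tested, since each group holds 3 libraries.

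Levels were compared between genes per kilobase of the Ensembl canonical transcript (1631 bases for OAS1 and 9975 bases for EIF2AK2, the extremes). In control vehicle, ADAR was highest at 37.7 CPM per kb ± 1.54 (SD, n = 3), then EIF2AK2 at 21.3 ± 1.09 and OAS3 at 13.6 ± 1.54. OAS1 (2.60 ± 1.05), OASL (1.87 ± 0.240) and OAS2 (0.872 ± 0.478) were far lower, and OAS1 and OASL did not differ beyond their spread. In H1047R insulin the order was OAS3 (80.7 CPM per kb ± 13.9), OASL (70.0 ± 1.51), ADAR (59.4 ± 4.70), OAS1 (51.6 ± 11.2), EIF2AK2 (35.6 ± 2.24) and OAS2 (32.9 ± 7.30). There, OAS3 and OASL, ADAR and OAS1, and EIF2AK2 and OAS2 were pairs of neighbours whose ranges of mean ± SD overlapped. ADAR and EIF2AK2, the most abundant members in untreated cells, were thus passed by OAS3 and OASL. The canonical transcript need not be the isoform these cells use, so the order is approximate.

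The make-up of the OAS transcripts shifted with their level. The 4 genes summed to 18.98 CPM per kb ± 2.93 in control vehicle, 16.1 ± 0.807 in control insulin, 46.4 ± 28.6 in H1047R vehicle and 235 ± 31.2 in H1047R insulin (SD, n = 3). OAS3 made up 72.2% ± 3.67, 78.03% ± 2.41, 54.9% ± 7.06 and 34.2% ± 1.36 of these sums. OASL, the member without synthetase activity, made up 10.0% ± 2.23, 8.60% ± 1.78, 18.4% ± 1.52 and 30.2% ± 4.49. OAS1 went from 13.4% ± 3.42 to 21.8% ± 1.88 and OAS2 from 4.41% ± 1.80 to 13.9% ± 1.26 between control vehicle and H1047R insulin. The share of OAS3 was below every control library in each H1047R library, also without replicate 1 of H1047R vehicle (47.2%), where replicates 2 and 3 held 61.2% and 56.1%. These shares are a description, with no test.

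**Figure D3:**
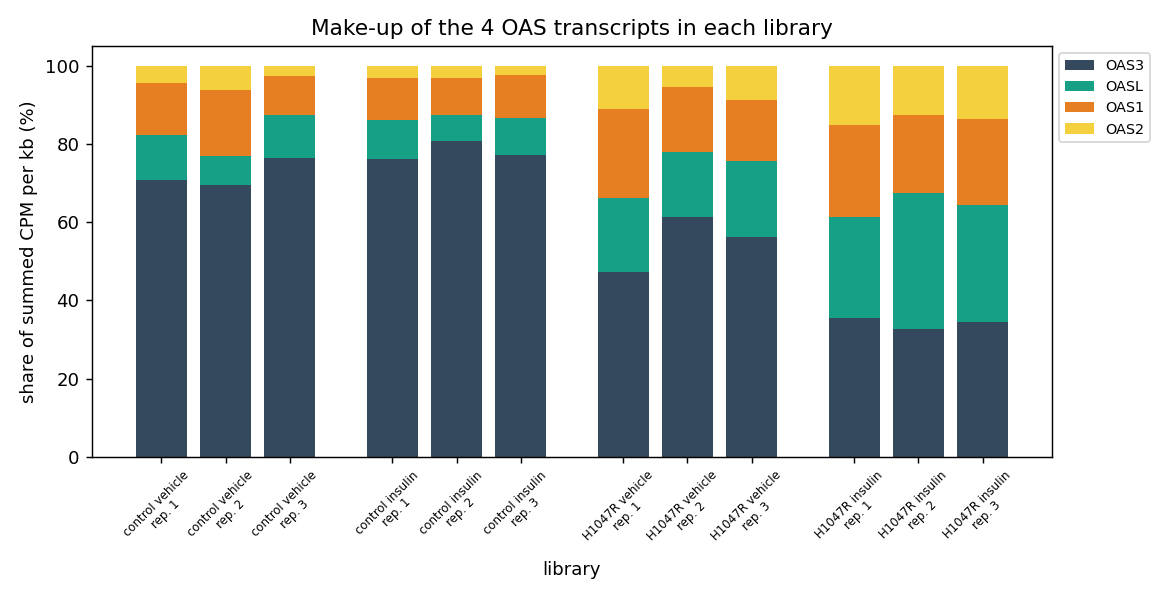
Stacked bars of the share (%) of each OAS gene in the summed CPM per kb of the 4 OAS genes, 1 bar for each of the 12 libraries. OAS3 takes 69.5 to 80.8% in the control libraries, 47.2 to 61.2% in H1047R vehicle and 32.8 to 35.5% in H1047R insulin.

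The OAS1, OAS3 and OAS2 genes were set against their protein-coding neighbours on chromosome 12 for insulin in H1047R cells. On either side, RPH3A (7 counts over all libraries) and DTX1 (6 counts) were too low to be tested. RASAL1, next to DTX1, had a log2 fold change of 1.55 ± 0.682 (adjusted p = 0.0763) at 70 counts over all libraries, and DDX54, an RNA helicase gene, had 0.12 ± 0.0436 (adjusted p = 0.0254). Within the span shown, TPCN1, an ion channel gene, fell by 0.83 on the log2 scale (SE 0.061, adjusted p = 1.79e-14). No tested protein-coding neighbour was called higher. Of all genes tested, 9.85% were called higher and 9.8% lower, so none higher among so few neighbours is near that share.

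**Figure D4:**
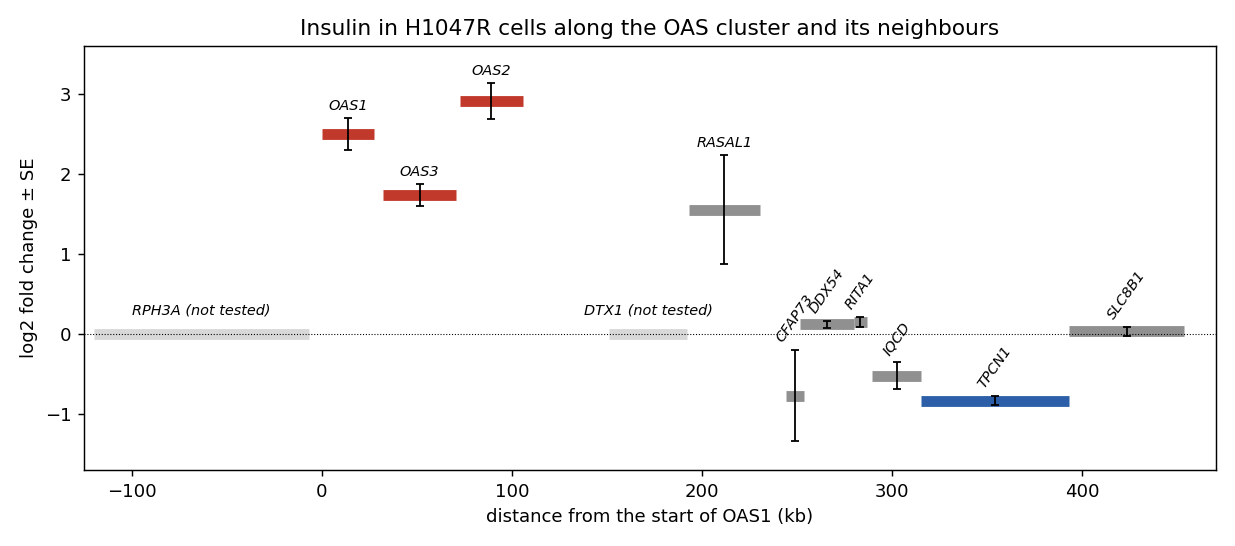
Log2 fold change (± SE) for insulin in H1047R cells of OAS1, OAS3, OAS2 and their protein-coding neighbours, drawn as bars over each gene's extent in kb from the start of OAS1. RPH3A is cut at the left edge, and RPH3A and DTX1, which were not tested, are drawn at 0 in light grey; the 3 OAS genes lie at 1.74 to 2.91 and TPCN1 at -0.83.

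Most genes in a list of sensors that act beside the members on double-stranded or Z-form RNA, and of their adaptors, rose as well. For insulin in H1047R cells, 7 of 8 genes of this list were called higher and none lower, against 9.85% and 9.8% of all genes tested. RIGI, which encodes the helicase RIG-I, rose by 2.40 ± 0.115 on the log2 scale, from 34.6 to 182 CPM. IFIH1, which encodes the long-RNA sensor MDA5, rose by 1.88 ± 0.118, from 21.6 to 79.0 CPM, and DHX58, which encodes their relative LGP2, by 1.34 ± 0.0992. MAVS, the adaptor of RIG-I and MDA5, was not called (-0.04 ± 0.0356). ZBP1, which binds Z-form RNA, was at 0 in all 9 libraries of the other groups and at 0.163 to 0.415 CPM in H1047R insulin. It was called there (adjusted p = 0.000846), but not without H1047R vehicle replicate 1, which left 6 of 8. ZBP1 is among the 7 but passed the filter on counts only through the H1047R insulin libraries. It could thus only be called higher, and its call is no support for the count. For H1047R in vehicle, RIGI alone was called (0.91 ± 0.138, adjusted p = 0.000119). For the interaction 5 of 8 were called higher, against 4.58% of all genes tested, led by RIGI (2.43 ± 0.188) and IFIH1 (1.98 ± 0.192).

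Genes of other proteins with a double-stranded RNA-binding domain were called in both directions, in numbers near the shares of all genes. Of 18 such genes 16 were tested, and 1 was called higher and 2 lower for insulin in H1047R cells, against 9.85% and 9.8% of all genes tested. CDKN2AIP, which encodes a regulator of the p53 pathway, rose by 0.85 ± 0.0572 on the log2 scale. STAU2, which encodes an RNA transport protein, had -0.28 ± 0.053, and ADARB1, the other catalytically active editing enzyme of the ADAR family, -0.18 ± 0.0427. Without H1047R vehicle replicate 1, STAU2 was still called lower and ADARB1 was not. ADARB1 had a like value for insulin in control cells (-0.19 ± 0.0435, adjusted p = 0.00327, not called), and its interaction was 0.02 ± 0.0609 (adjusted p = 0.901). ADAD1 and ADAD2 were at 0 counts in every library.

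Among 5 genes linked to the handling of 2′-5′ oligoadenylates, PDE12, a 2′-phosphodiesterase, rose by 0.50 ± 0.0547 with insulin in H1047R cells. ENPP1, a nucleotide phosphodiesterase, had -0.58 ± 0.0782, from 16.2 to 10.9 CPM. The other 3 were not called, and 9.85% of all genes tested were called higher and 9.8% lower. PDE12 and ENPP1 were called in the same direction for the interaction (0.38 ± 0.0788 for PDE12 and -0.73 ± 0.108 for ENPP1), for which 4.58% of all genes were called higher and 4.49% lower. Neither was called for H1047R in vehicle or for insulin in control cells.

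Downstream of PKR, the genes of eIF2, its kinases, its exchange factor and its phosphatases moved in both directions. Of 16 genes, 5 were called higher and 3 lower for insulin in H1047R cells, against 9.85% and 9.8% of all genes tested. PPP1R15A, which encodes the inducible subunit GADD34 that recruits a phosphatase to eIF2α, rose by 1.23 ± 0.0519, from 45.1 to 106 CPM. EIF2B2, a subunit of the exchange factor, rose by 0.34 ± 0.0532 and PPP1R15B, the constitutive partner of PPP1R15A, by 0.30 ± 0.048. EIF2S1, which encodes eIF2α itself, was not called (0.07 ± 0.0379). The other eIF2α kinases differed from EIF2AK2 in size or sign, with -0.24 ± 0.0415 for EIF2AK1 (called lower), 0.18 ± 0.0433 for EIF2AK4 (called higher) and -0.07 ± 0.0492 for EIF2AK3 (not called). Of 5 regulators of PKR, PRKRIP1 (0.39 ± 0.0535) and DNAJC3 (0.30 ± 0.0458), both of which encode inhibitors, rose, against the same 9.85% of all genes.

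Of 8 genes known as targets of the response to eIF2α phosphorylation, 8 rose with insulin in H1047R cells, against 9.85% of all genes tested. PPP1R15A is counted both here and among the eIF2 genes above. ATF3, a stress-induced transcription factor, rose by 2.09 ± 0.108 and CHAC1, which degrades glutathione, by 1.95 ± 0.0957. ASNS, asparagine synthetase, rose by 1.33 ± 0.207, while ATF4, whose output depends largely on translation, rose by 0.24 ± 0.0445. CHAC1 was also called for insulin in control cells (0.93 ± 0.131), and ATF3 (1.11 ± 0.149) and CHAC1 (0.92 ± 0.134) for H1047R in vehicle, where 0.141% of all genes were called higher and where ATF3 alone of the 8 was called without replicate 1. Several kinases other than PKR feed into this list, so its counts do not bear on PKR activity, and no protein or phosphorylation was measured in these libraries.

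Among 6 genes of interferon receptor signalling, 5 were tested, and IRF9, a subunit of ISGF3, was listed at 0 counts in all 12 libraries. Ambiguous reads are not counted and the annotation release is unknown, so 0 counts need not mean that IRF9 RNA was absent. STAT2, another subunit of ISGF3, rose with insulin in H1047R cells by 0.41 ± 0.0538 on the log2 scale, from 102 to 135 CPM. IFNAR1, a receptor subunit, had -0.17 ± 0.0403 and JAK1, a receptor-associated kinase, -0.17 ± 0.0385, both called lower. Of all genes tested, 9.85% were called higher and 9.8% lower in that comparison. For H1047R in vehicle none of the 5 was called, where 0.141% of all genes were called higher. Of 7 interferon ligands 3 were tested. IFNL1 was at 0 CPM in all 6 control libraries, at 0.0389 to 0.253 CPM in H1047R vehicle and at 0.853 to 1.21 CPM in H1047R insulin, and was called higher for insulin in H1047R cells (adjusted p = 1.59e-05). IFNB1 was at 0 in the control libraries and reached 0.0825 to 0.196 CPM in H1047R insulin. IFNB1 is thus near the limit of detection even where the members were highest. IFNL1 was low in H1047R insulin (mean 0.972 CPM) but was also called higher for H1047R in insulin (adjusted p = 3.45e-09). IFNL1 entered the test mainly through the H1047R insulin libraries, where it was highest, so neither of its calls counts as support.

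**Figure D5:**
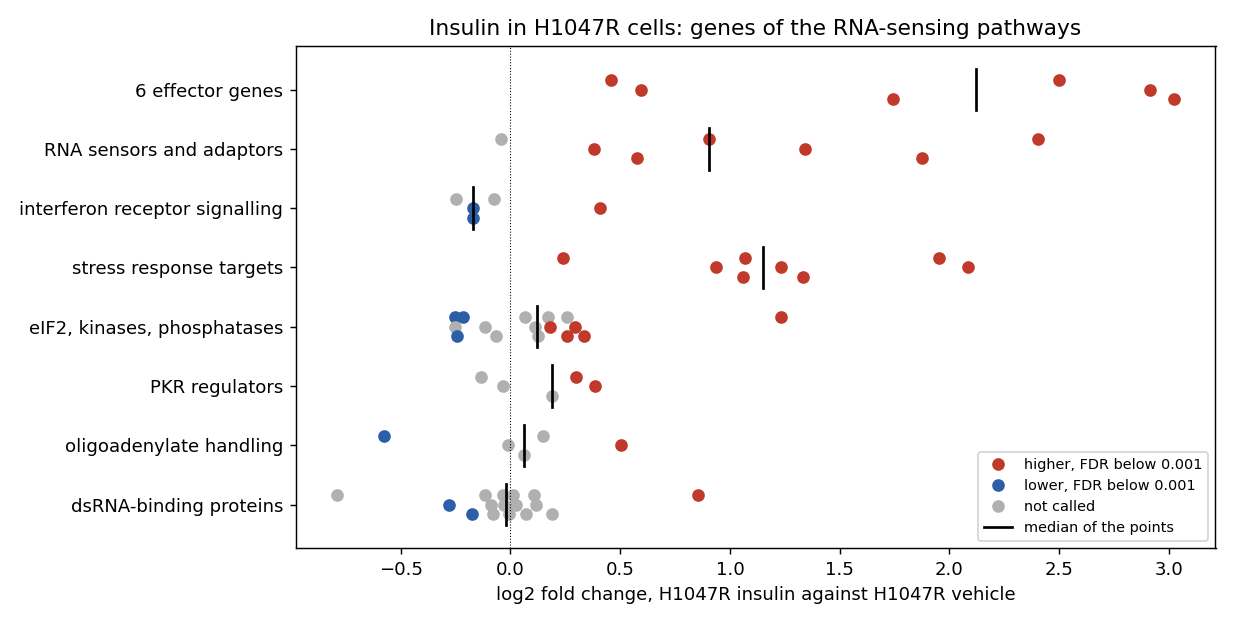
Log2 fold change for insulin in H1047R cells of the tested genes of each list, 1 point per gene, with the median as a line and colours for genes called higher or lower at an FDR below 0.001. ZBP1, at 0 in 9 libraries, is left out; the 6 members lie between 0.46 and 3.02, and the stress-response targets between 0.24 and 2.09.

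The genes whose pattern was most like that of the members were found by Pearson's r of log2 CPM over the 12 libraries, among 12920 genes averaging at least 1 CPM. For the mean of the 4 OAS genes these were ISG15 (r = 0.998), a ubiquitin-like modifier, and the antiviral GTPases MX2 (r = 0.997) and MX1 (r = 0.997). MX1 went from 20.1 CPM (vehicle) and 14.9 CPM (insulin) in control cells to 61.4 CPM in H1047R vehicle and 357 CPM in H1047R insulin. For EIF2AK2 they were TRIM25 (r = 0.994), PARP14 (r = 0.993) and F3 (r = 0.992), and for ADAR they were TRIM14 (r = 0.995), PARP9 (r = 0.992) and PARP14 (r = 0.992). The libraries fall into groups with the H1047R insulin group apart, so these values mostly restate the order of the groups.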

How the data were processed

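Per the labels and the study's methods, the authors prepared libraries from 500 ng of total RNA with a stranded mRNA kit, cut adapters with cutadapt and Trim Galore and mapped the reads against hg38 by STAR. The authors deposited raw counts per gene of uniquely placed reads, with no normalization. No version of the trimming and alignment tools is given in the sources used here. The GENCODE release the methods name is a mouse one, so the human release behind the counts is unknown. Locations and transcript lengths were taken from GENCODE v44. The reverse-strand counts were used (93.5 to 93.7% of strand-specific counts). Unmapped, multiply placed, unassigned and ambiguous reads (3.12 to 4.09%, 8.48 to 9.51% in H1047R insulin and 13.6 to 15.4% elsewhere, 3.91 to 4.55% and 3.31 to 3.61%) stayed out of library sizes.

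Of 60617 identifiers, 60357 matched a table of names. The 22756 genes with a mean of at least 1 count were fitted with edgeR 4.0.16 (glmQLFit and glmQLFTest, R 4.3.3) over all 12 libraries at once, after TMM scaling, with a coefficient for each group, which leaves 8 residual degrees of freedom. Calls were made at a Benjamini-Hochberg FDR below 0.001 over all genes tested. A standard error is the size of the log2 fold change over the square root of F. All adjusted p-values come from this test unless DESeq2 1.42.0 is named. Comparisons share libraries, so they are not independent. No pair of replicates agreed within sampling noise (chi-square of 2.70 to 5.90 for each degree of freedom).

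Over all genes averaging at least 1 CPM, same-numbered libraries did not deviate together (r from -0.0580 to 0.0873 over 18 pairs), so the fit has no replicate term. That check is not specific to the members, most of which had the same order of replicates in both H1047R groups. An antisense transcript overlaps the OAS cluster and GPATCH11 overlaps the end of EIF2AK2, and strand-specific counts keep these apart. The alternatives were other scalings, filters, strand columns and fits, and leaving out each library. The members and gene lists were chosen with earlier results of these data known. Genes named from a list are its most changed called members, with a few others chosen after their values were seen (ATF4, EIF2S1, MAVS, the other eIF2α kinases and JAK1). Some genes are not reported here.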

Additional observations from a re-analysis of the deposited data

Results flagged for a closer look

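The insulin effect differed between H1047R and control cells for each of the 6 genes, by the interaction term of the edgeR fit. The difference of the log2 fold changes was 3.82 for OAS2, 3.45 for OASL, 3.17 for OAS1, 1.86 for OAS3, 0.60 for EIF2AK2 and 0.42 for ADAR. All 6 remained called without H1047R vehicle replicate 1, with 4.86 for OAS2, 4.14 for OASL, 4.13 for OAS1, 2.35 for OAS3, 0.70 for EIF2AK2 and 0.52 for ADAR. PIK3CA was 3.06-fold higher in H1047R insulin than in H1047R vehicle, and its part in these differences was not tested.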

How the results depend on the processing

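The number of the 6 genes called was 6 for insulin in H1047R cells and for H1047R in insulin under all alternatives. For the interaction it was 5 to 6 when 1 library was left out. For insulin in control cells it was 0, but 2 with no filter on low counts and 1 with only the groups compared, and 0 when any 1 library was left out. For H1047R in vehicle it was 4, but 1 with a filter of 1 CPM in 3 libraries, 1 with DESeq2 (OASL in both), 5 (with ADAR) with no filter or at an FDR of 0.05, and 1 to 4 when 1 library was left out. There DESeq2 gave adjusted p-values of 0.0531 for OAS1, 0.0302 for OAS2 and 0.184 for OAS3. In that comparison 36 genes were called in all, against 152 with no filter, 6 with the stricter filter, 22 with DESeq2 and 14 to 100 when 1 library was left out. The causes were not tested. The sign of EIF2AK2 for insulin in control cells (-0.0041) turned to 0.0011 with library totals in place of TMM, and ranged from -0.037 to 0.040 when 1 library was left out. The replicate block called 0, 6, 4, 6 and 6 of the genes in the order of the text, the same numbers as without it, with 53 genes called for H1047R in vehicle. Of 12 libraries 3 correlated best with their own number. The ISRE core was found in 2 of the 4 genes with a window, against 4.38% of all genes with one. It was found in 1 when only bases before the start were searched, against 3.71%. AAACGAAAC, which was chosen after the sequences were seen, was found in 3. Depth limits OAS1 and OAS2 in control cells, where single libraries hold as few as 57 and 43 counts.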
